A study of Mus musculus with 3 samples.

Results

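The genes described here are 8 transcriptional regulators of 31053 genes in the count matrices: the MEF2 factors Mef2a, Mef2c and Mef2d, the nuclear factor I (NFI) genes Nfia, Nfib, Nfic and Nfix, and the coactivator gene Ppargc1a. They were chosen by name, with earlier results of these data known, and all 8 were present in each matrix. The study sequenced single cells of mouse neocortex on the 10x Genomics platform to follow the development of somatostatin (Sst) neurons. Each stage was 1 library: embryonic day 16.5 (E16.5, 6 animals pooled), postnatal day 1 (P1, 3 animals pooled) and postnatal day 5 (P5, 3 animals pooled). All animals were of the Sst-Cre; RCEloxP strain, in which Cre from the Sst locus switches on a green fluorescent reporter for good, and no other allele or agent was named. Living reporter-positive cells were sorted, so that a cell that once expressed Sst-Cre was taken whether or not it held Sst transcripts when it was collected. With 1 library per stage and animals pooled, a difference between stages compares 3 libraries, stage cannot be told apart from library, and no test between stages was possible.

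Levels and shares were read in 3 groups of cells per library. Cells with at least 1 unique molecular identifier (UMI, 1 counted transcript molecule) of Nos1 are called Nos1 cells. Nos1, together with Chodl and Npy, marks the long-range projection neurons among Sst neurons. Cells with at least 5 Sst UMIs and no Nos1 UMI are called Sst-high cells, and cells with at least 1 Lhx6 UMI and 0 Sst UMIs are called Lhx6 cells without Sst. Lhx6 encodes a transcription factor of neurons born in the medial ganglionic eminence. The Nos1 cells numbered 67 in the E16.5 library, 434 in that of P1 and 547 in that of P5. The Sst-high cells numbered 1920, 757 and 896 in the same order, and the Lhx6 cells without Sst 776, 491 and 559. Nos1 cells and Lhx6 cells without Sst overlapped by their definitions, in 2, 26 and 14 cells.

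MEF2 proteins are MADS-box transcription factors that are held in check by class IIa histone deacetylases and released by calcium signals through calcineurin. In cortical interneurons MEF2C is best known from the parvalbumin lineage, and in postmitotic neurons in general MEF2 factors shape synapse number. PGC-1α, the product of Ppargc1a, binds no DNA of its own but joins nuclear receptors and other factors, MEF2 proteins among them, to switch on mitochondrial genes, and in interneurons it is known for genes of fast transmitter release. NFI proteins bind the core sequence TTGGC as dimers and are known in the cortex from radial glia, astrocytes and excitatory neurons.

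The 8 genes lie on 7 mouse chromosomes (GRCm38 coordinates). Mef2a spans chr7:67231163-67372858 on the minus strand, Mef2c chr13:83504034-83667080 on the plus strand and Mef2d chr3:88142372-88172086 on the plus strand. Nfia (chr4:97772734-98118874, plus strand) and Nfib (chr4:82290173-82705750, minus strand) share a chromosome, Nfic spans chr10:81396186-81455635 and Nfix chr8:84699876-84800344, both on the minus strand. Ppargc1a spans chr5:51454250-51567726 on the minus strand. The promoters of Ppargc1a, Mef2a and Mef2c are shown because the results on inhibitory neurons that follow turn on these 3 genes. Each run covers 250 bases before to 50 bases after an annotated start, read 5′ to 3′ along the gene's own strand (RefSeq, GRCm38.p6), with motif matches in capitals: chr5:51567676-51567975 for Ppargc1a, chr7:67372809-67373108 for Mef2a and chr13:83503784-83504083 for the first of the starts of Mef2c.
Ppargc1a: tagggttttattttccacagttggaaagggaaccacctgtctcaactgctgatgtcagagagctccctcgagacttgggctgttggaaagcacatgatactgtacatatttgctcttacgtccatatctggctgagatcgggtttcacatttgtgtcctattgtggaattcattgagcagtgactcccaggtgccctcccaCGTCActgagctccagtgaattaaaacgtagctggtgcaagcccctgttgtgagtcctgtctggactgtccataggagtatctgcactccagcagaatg
Mef2a: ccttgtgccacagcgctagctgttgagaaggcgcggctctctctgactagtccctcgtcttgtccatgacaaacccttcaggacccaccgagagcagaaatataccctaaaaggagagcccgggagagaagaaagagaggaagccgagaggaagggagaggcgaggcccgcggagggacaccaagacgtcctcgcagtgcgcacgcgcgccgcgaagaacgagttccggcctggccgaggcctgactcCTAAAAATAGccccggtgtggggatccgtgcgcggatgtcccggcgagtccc
Mef2c: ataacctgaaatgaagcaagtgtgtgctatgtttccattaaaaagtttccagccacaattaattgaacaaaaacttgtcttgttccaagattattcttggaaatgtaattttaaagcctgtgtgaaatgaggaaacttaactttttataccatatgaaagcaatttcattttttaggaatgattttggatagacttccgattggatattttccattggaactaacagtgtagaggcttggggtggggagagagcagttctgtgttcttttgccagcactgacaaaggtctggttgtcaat
Both strands were searched for 3 motifs: the MEF2 consensus, the cyclic AMP response core TGACG and the NFI core TTGGC. The MEF2 consensus was present in 3.19% of 32851 mouse promoters of the same length, TGACG in 20.8% and TTGGC in 46.7%. The Mef2a promoter held 1 MEF2 match, the capitals, whose first base lay 2 bases before the start. The Ppargc1a promoter held TGACG on the opposite strand, printed above as CGTCA, with its first base 49 bases before the start. The printed window of Mef2c, that of its first start, held none of the 3 motifs. The window of its second start (chr13:83523406-83523705) held 1 match of TTGGC, on the opposite strand, with its first base 31 bases before that start. These matches describe the letters in the windows and not binding.

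The matrices held 4478 cells (E16.5), 4440 cells (P1) and 3406 cells (P5), with 25638779, 15654107 and 13429055 UMIs. Cells with more than 700 genes and under 10% mitochondrial UMIs were kept, 3952, 2501 and 2980 of them. The median depth of the 3 groups lay between 4979.5 and 7863 UMIs per cell at E16.5, between 3117 and 4557 at P1 and between 3073 and 5542.5 at P5. The libraries shared between 1 and 6 cell barcodes. All 7 markers of neurons of the medial ganglionic eminence (Gad1, Gad2, Lhx6, Sst, Sox6, Satb1, Maf) were detected in the Nos1 cells and the Sst-high cells. Markers of microglia and endothelial cells, which also use Mef2c, summed to at most 3.55 counts per 1000000 UMIs of the group (CPM) in any group, with the endothelial markers Cldn5, Flt1 and Kdr at 0 in the E16.5 groups. Markers of astrocytes and glial progenitors, which also use NFI genes, summed to at most 8.42 CPM. Markers of excitatory neurons (Neurod2, Neurod6, Slc17a7, Tbr1) summed to 564 CPM in the Nos1 cells at E16.5, then 149 at P1 and 6.11 at P5, against at most 7.01 in the Sst-high cells and 24.8 in the Lhx6 cells without Sst.

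Mef2c was abundant in the sorted neurons and separated the 3 groups. In the Sst-high cells its level was 668 CPM at E16.5 (95% interval 655 to 681), then 1232 CPM at P1 (1200 to 1264) and 789 CPM at P5 (764 to 814). In the Lhx6 cells without Sst the levels were 1728 CPM (1686 to 1770), 4147 CPM (4052 to 4244) and 3054 CPM (2978 to 3132). In the Nos1 cells they were 499.9 CPM (445 to 560.1), 913 CPM (872 to 957) and 324 CPM (299 to 350.1). These exact Poisson intervals, like every interval given here, cover counting error only. At each stage the order was Lhx6 cells without Sst, then Sst-high cells, then Nos1 cells, with no overlap of the intervals, and in each group the level was highest in the P1 library.

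The share of cells with a Mef2c UMI told the groups apart as well. Among Sst-high cells it was 82.3% at E16.5, then 84.0% at P1 and 83.3% at P5, and after each cell was thinned to 2000 UMIs it was 61.9%, 78.9% and 67.9%. Among Lhx6 cells without Sst it was 95.5%, 98.2% and 94.8% (thinned 91.5%, 98.4% and 92.2%). Among Nos1 cells it was 50.7%, 47.5% and 23.2% (thinned 36.9%, 37.6% and 20.5%). Mef2c was therefore detected in nearly every Lhx6 cell without Sst, and at P5 in fewer than 1 in 4 Nos1 cells. Excitatory neurons use Mef2c too, and in the 36, 30 and 12 cells of an excitatory gate (at least 3 UMIs of Neurod2 and Neurod6 together and none of Lhx6; median depths 12095, 6201.5 and 5031.5 UMIs) Mef2c stood at 817, 3406 and 2018 CPM.

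**Figure D1:**
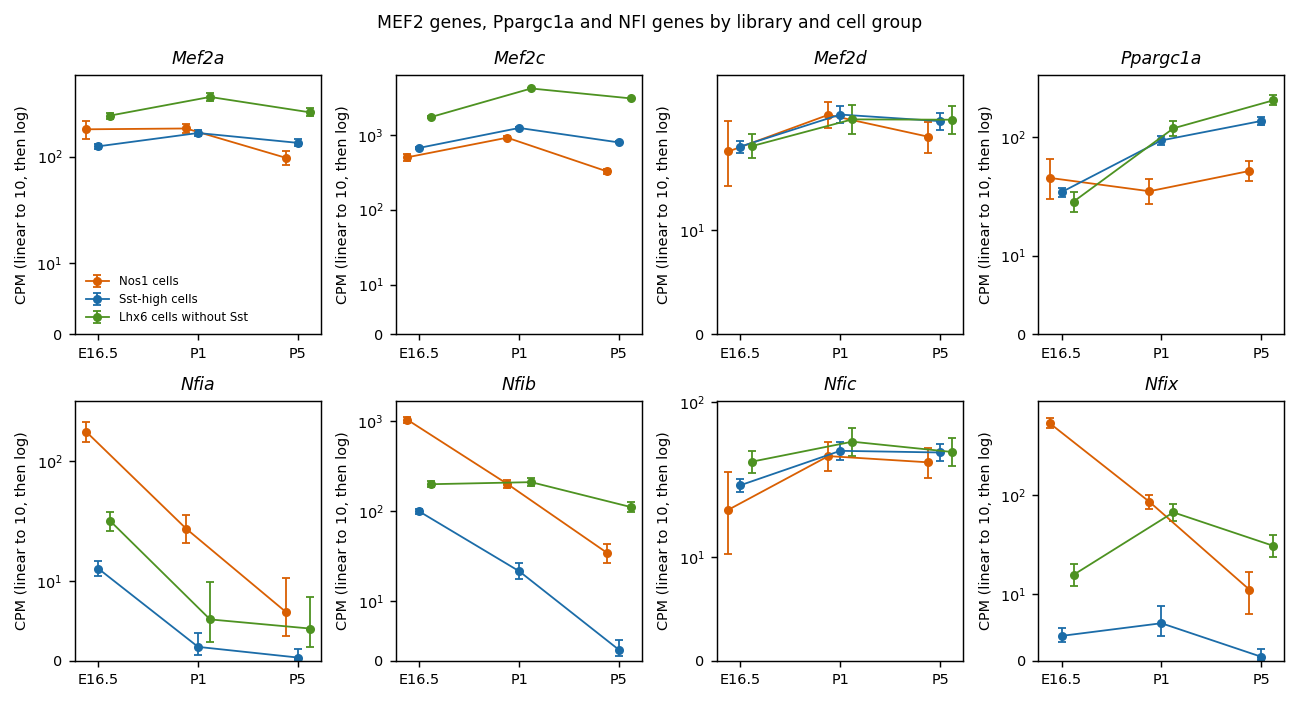
Level of each of the 8 genes (CPM, axis linear to 10 CPM and logarithmic above, 1 panel per gene) at E16.5, P1 and P5 in Nos1 cells, Sst-high cells and Lhx6 cells without Sst. Points are 1 library each and bars are 95% Poisson intervals. Mef2c in the Lhx6 cells without Sst runs from 1728 to 4147 CPM above the other groups at each stage, Ppargc1a climbs to 206 CPM there while it stays at 52.0 CPM or below in Nos1 cells, and Nfia, Nfib and Nfix are highest in the Nos1 cells of E16.5.

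Mef2a, a widely expressed member of the family, was highest in the Lhx6 cells without Sst at each stage. Its level in the Sst-high cells was 125 CPM at E16.5, then 166 CPM at P1 and 134 CPM at P5, and in the Lhx6 cells without Sst it was 242, 362 and 260 CPM. In the Nos1 cells it was 180.1 CPM (148 to 218), 183 CPM (165 to 203) and 97.3 CPM (84.0 to 112). The Nos1 cells thus lay between the other groups at E16.5, overlapped the Sst-high cells at P1 and were the lowest group at P5. The share of Nos1 cells with a Mef2a UMI was 67.2%, 48.6% and 26.7% over the 3 stages (thinned 30.8%, 28.9% and 16.9%). Mef2d, the third family member, did not separate the groups. Its level lay between 32.0 and 34.6 CPM in the 3 groups at E16.5, between 51.3 and 55.1 CPM at P1 and between 39.7 and 51.0 CPM at P5.

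Between E16.5 and P1, 6 of the 8 genes could be compared in the Sst-high cells, where a gene needed a mean of 20 CPM over the 2 groups and was counted once past 1.5-fold on the log2(CPM + 1) scale. At P1, 4 of 6 were past that fold higher, against 23.7% of 7162 genes, and 1 of 6 lower, against 14% of the same genes. The 4 were Ppargc1a with a log2 ratio of 1.43 (95% interval of the count ratio 1.26 to 1.64), Mef2c with 0.88 (0.84 to 0.93), Nfic with 0.72 (0.49 to 0.97) and Mef2d with 0.66 (0.46 to 0.90). Nfib was the lower one, with −2.15 (−2.52 to −1.91), and Mef2a had 0.41 (0.29 to 0.54). The median of the 6 log2 ratios was 0.69, against 0.13 over all genes tested. The median of all genes shifted with the scaling, to −0.13 under median-of-ratios size factors, and the calls of Mef2d (0.41) and Nfic (0.46) were lost there. Mef2d was also under the limit with at least 3 Sst UMIs (0.57) and after thinning (0.52). Ppargc1a fell below the limit in 2 other settings, at 0.54 with cells of more than 1000 genes and under 5% mitochondrial UMIs, which left 184 Sst-high cells at P1, and at 0.56 when cells were thinned before the groups were formed.

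From P1 to P5 the counts among the 5 members tested in the Sst-high cells lay near those of all genes. None of 5 members was past 1.5-fold higher, where 16.7% of 7238 genes were, and 1 of 5 was lower, where 22.8% were. That 1 was Mef2c, with a log2 ratio of −0.64 (−0.70 to −0.58), and it was no longer past the limit at 10 or more Sst UMIs (−0.57), under the stricter cell filter (−0.56) and under median-of-ratios size factors (−0.53). Ppargc1a was higher at P5 by 0.54 (0.37 to 0.72), just under the limit of 1.5-fold. It was past the limit under median-of-ratios size factors, which gave 1 member higher and 0 lower. It was also past it under the stricter cell filter, with at least 3 Sst UMIs, with the mean of per-cell CPM and after thinning within the groups (1 higher and 1 lower in each), and when cells were thinned before grouping (1 higher and 2 lower). Mef2a, Mef2d and Nfic had log2 ratios of −0.31, −0.14 and −0.03. Nfia, Nfib and Nfix were under the mean of 20 CPM and were not counted. Nfib went from 98 to 9 UMIs, with a log2 ratio of −2.99 (−4.73 to −2.57). Nfix went from 26 to 3 UMIs (−2.05, −5.59 to −1.52) and Nfia from 8 to 2 (−0.97, −5.38 to 0.21).

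Within each library, the Lhx6 cells without Sst were past 1.5-fold above the Sst-high cells in Mef2c, Mef2a and Nfib. Nfix was past that fold at P1, with a log2 ratio of 3.35 (2.94 to 4.24). At E16.5 and P5 Nfix was under the mean of 20 CPM and not counted, with ratios of 1.82 (1.52 to 2.63) and 4.31 (4.06 to 7.99). The last ratio rested on 3 Nfix UMIs in the Sst-high cells. At E16.5, 4 of 7 members were past 1.5-fold higher, against 2.84% of 6831 genes, and none lower, against 4.99%. At P1, 4 of 7 were higher, against 5.18% of 7335 genes, and none lower, against 9.34%. At P5, 3 of 6 were higher, against 5.37% of 6923 genes, and none lower, against 6.18%. These counts are a description, since Nfia at E16.5, Nfix at P1 and Nfib at P5 reached the mean of 20 CPM only through the Lhx6 cells without Sst. Mef2c, Nfib and Mef2a are also on the study's list of genes of non-Martinotti cells, a list chosen on these same samples, so their direction here is not independent evidence.

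For Mef2c the log2 ratio of the Lhx6 cells without Sst over the Sst-high cells was 1.37 (1.33 to 1.42) at E16.5, then 1.75 (1.70 to 1.80) at P1 and 1.95 (1.90 to 2.01) at P5. At each stage more than 99.7% of the genes tested had a lower ratio, the percentages being 99.74%, 99.82% and 99.77%. For Mef2a the log2 ratios were 0.95, 1.12 and 0.95, with intervals from 0.84 to 1.07, 0.97 to 1.28 and 0.78 to 1.12. Mef2c and Mef2a remained past 1.5-fold at each stage under every alternative run. Mef2d, by contrast, had log2 ratios of 0.01, −0.10 and 0.03.

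The level of Mef2c ran down with the number of Sst UMIs across Lhx6 cells that held no Nos1. In bins of 0, 1 to 4, 5 to 19, 20 to 49 and 50 or more Sst UMIs, Mef2c levels at E16.5 were 1732, 1181, 862, 693 and 423 CPM. At P1 they were 4159, 3026, 1529, 1020.0 and 638 CPM, and at P5 3070.4, 1206, 864, 518 and 542 CPM. Mef2c was thus lower in each next bin of Sst UMIs except for the last at P5, which held 29 cells and whose interval (453.5 to 642) overlapped that of the bin before it (474 to 564.5). Cells with more Sst UMIs were also deeper, with medians of 4979.5 UMIs in the first and 9365 in the last bin at E16.5. When every cell was thinned to 2000 UMIs and binned anew at 0, 1 to 4, 5 to 19 and 20 or more Sst UMIs, Mef2c levels were 1576, 1031, 604 and 289 CPM at E16.5, 3905, 2505, 1135 and 447 CPM at P1, and 2442, 1041, 714 and 350.0 CPM at P5. The order was the same, though the last of these bins held 19 cells at P1 and 30 at P5.

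Mef2a gave a weaker gradient and Ppargc1a none that held across stages. Mef2a levels in the first and the third bin of Sst UMIs were 242 and 116 CPM at E16.5, 356 and 178 CPM at P1, and 259 and 144 CPM at P5, with little change past the third bin. Ppargc1a at E16.5 was highest in cells with 50 or more Sst UMIs (44.0 CPM, 37.8 to 51.0) and stood at 28.2 CPM in cells with none. At P5 it ran the other way, from 204 CPM in cells with no Sst UMI to 81.4 CPM (49.8 to 126) in cells with 50 or more. Gad1, which encodes a GABA-synthesizing enzyme, and Sox6 served as comparisons. From the first to the last bin, Gad1 went from 220.2 to 384 CPM at E16.5 and from 258 to 457 CPM at P1, opposite to Mef2c. At P5 Gad1 stood at 154 and 167 CPM, with intervals that overlapped. Sox6 went from 300 to 336 CPM at E16.5. After birth Sox6 fell, as Mef2c did, from 367 to 203 CPM at P1 and from 279 to 191 CPM at P5.

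**Figure D2:**
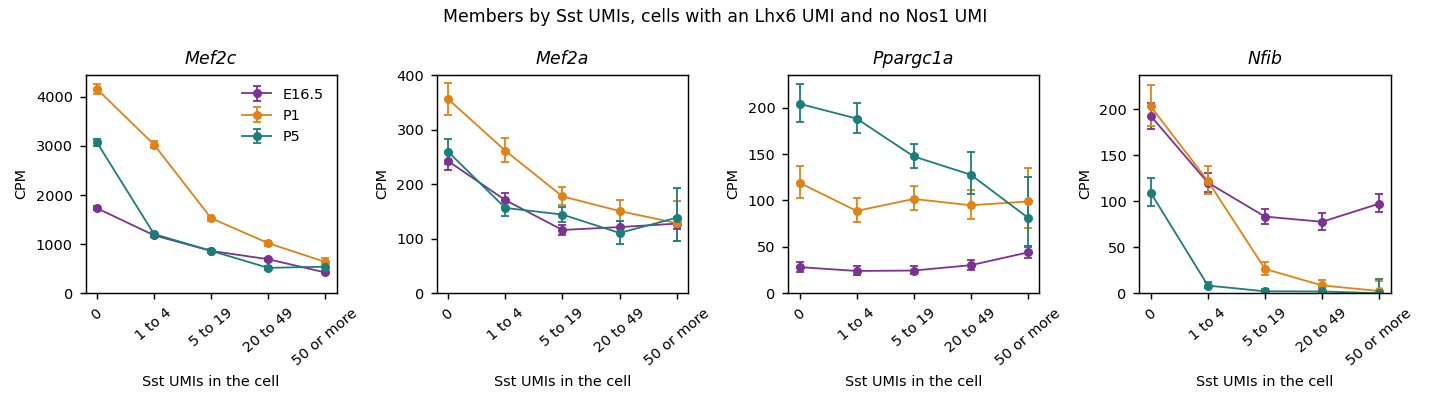
Levels of Mef2c, Mef2a, Ppargc1a and Nfib (CPM, linear axes from 0) in Lhx6 cells without Nos1, by the number of Sst UMIs in the cell (0, 1 to 4, 5 to 19, 20 to 49, 50 or more), with 1 line per library and 95% Poisson intervals as bars. Mef2c declines along the bins in each library, for example from 1732 to 423 CPM at E16.5, except for the last step at P5 (518 to 542 CPM). Nfib declines most steeply at P1 (203 to 2.47 CPM) and P5.

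Ppargc1a increased with stage in the Sst-high cells and in the Lhx6 cells without Sst, and was lower in the Nos1 cells than in both after birth. Its level in the Sst-high cells was 34.4 CPM at E16.5 (31.5 to 37.6), then 94.2 CPM at P1 (85.6 to 104) and 138 CPM at P5 (127 to 148). In the Lhx6 cells without Sst it was 28.6 CPM (23.5 to 34.5), 119 CPM (104 to 137) and 206 CPM (186 to 227). In the Nos1 cells it was 45.4 CPM (29.9 to 66.1), 35.0 CPM (27.3 to 44.3) and 52.0 CPM (42.4 to 63.1), and these 3 intervals overlapped. The groups were close at E16.5, and by P1 the Nos1 cells lay below both other groups.

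Over both steps, the log2 ratio of P5 over E16.5 for Ppargc1a in the Sst-high cells was 1.97 (1.83 to 2.17). In the Lhx6 cells without Sst the log2 ratio was 2.02 (1.72 to 2.41) for P1 over E16.5 and 0.78 (0.54 to 1.03) for P5 over P1. In the Nos1 cells the same ratios were −0.37 (−1.04 to 0.32) and 0.56 (0.11 to 1.03). The share of cells with a Ppargc1a UMI went from 14.8% to 26.6% and 38.5% of Sst-high cells (thinned 4.99%, 12.8% and 20.4%). Among Lhx6 cells without Sst it went from 11.1% to 26.5% and 42.6% (thinned 5.12%, 18.8% and 31.5%), and among Nos1 cells from 19.4% to 11.3% and 9.69% (thinned 3.08%, 5.06% and 6.76%). In the excitatory gate the share was 11.1% (4 of 36 cells), 13.3% (4 of 30) and 8.33% (1 of 12, exact 95% interval 0.211% to 38.5%).

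Set against the Sst-high cells of the same library, the Nos1 cells were lower in Ppargc1a at both postnatal stages and in Mef2c at P5. At E16.5, 3 of 8 members were past 1.5-fold higher in the Nos1 cells, against 6.18% of 6879 genes, and none was lower, against 5.83%. At P1, 2 of 7 were higher, against 4.03% of 7376 genes, and 1 of 7 lower, against 5.55%. That split of 2 higher and 1 lower turned to 0 and 3 under a stricter cell filter (more than 1000 genes, under 5% mitochondrial UMIs). It was 1 and 2 with at least 2 or at least 5 Nos1 UMIs, with cells holding UMIs of other cell types left out, and in Nos1 cells with Lhx6 and no Neurod UMI. At P5, none of 5 was higher, against 5.34% of 6840 genes, and 2 of 5 were lower, against 9.23%. The higher members were Nfia, Nfib and Nfix at E16.5 and Nfib and Nfix at P1, which are described with the NFI genes. Nfia and Nfix at E16.5 and Nfix at P1 reached 20 CPM only through the Nos1 cells.

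The log2 ratio of Ppargc1a in Nos1 cells over Sst-high cells was 0.39 (−0.22 to 0.96) at E16.5, then −1.40 (−1.82 to −1.06) at P1 and −1.39 (−1.72 to −1.10) at P5. At P1 only 0.624% of the genes tested had a lower ratio, and at P5 1.94%. It stayed past 1.5-fold under every alternative run at both stages, between −3.05 and −1.25 at P1 and between −2.51 and −1.15 at P5. For Mef2c the log2 ratios were −0.42 (−0.59 to −0.25), −0.43 (−0.51 to −0.35) and −1.28 (−1.41 to −1.16), and at P5 it lay between −2.90 and −1.10 under the alternatives. Mef2a had log2 ratios of 0.53, 0.14 and −0.46, none past the limit. Nfic had log2 ratios of −0.50, −0.11 and −0.21, with intervals that included 0 at each stage.

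The Nos1 group mixed cells with 1 Nos1 UMI and cells with many, and the members were read in 4 bins of Nos1 UMIs. In the E16.5 library the bins of 1, 2 to 4, 5 to 9 and 10 or more Nos1 UMIs held 38, 21, 4 and 4 cells, with Mef2c levels of 575, 480.3, 561 and 19.4 CPM. The first 3 of these intervals overlapped, and the last level rested on 1 UMI. Ppargc1a levels there were 74.2 and 18.7 CPM in the first bins, with 0 UMIs in the 8 cells of the others. At P1 the cells with 1, 2 to 4, 5 to 9 and 10 or more Nos1 UMIs numbered 126, 80, 83 and 145. Their Mef2c levels were 2169, 616, 362 and 175 CPM, and their Ppargc1a levels 70.0, 46.8, 22.4 and 6.40 CPM. The cells with a single Nos1 UMI thus lay above the 1232 CPM of Mef2c in the Sst-high cells, and those with more lay below it. Of the cells with 10 or more Nos1 UMIs, 31.0% had a Mef2c UMI and 2.76% a Ppargc1a UMI.

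At P5 the corresponding bins held 81, 82, 147 and 237 cells, with Mef2c levels of 1264, 455, 164 and 79.0 CPM and Ppargc1a levels of 160, 94.2, 38.1 and 16.8 CPM. Ppargc1a was thus higher at P5 than at P1 in each bin, with intervals that overlapped except in cells with 1 Nos1 UMI. Cells with 10 or more Nos1 UMIs were 145 of 434 Nos1 cells at P1 and 237 of 547 at P5. Mef2a changed less along the bins, with 218, 169, 190.1 and 158 CPM at P1 and 160, 83.8, 98.6 and 80.0 CPM at P5. Npy, which encodes neuropeptide Y of the long-range neurons, ran the other way, from 5925 to 37701 CPM at P1 and from 8445 to 40450 CPM at P5. With cells that lacked Lhx6 or held a Neurod2 or Neurod6 UMI left out, Mef2c levels along the 4 bins were 2024, 427, 388 and 131 CPM at P1 and 1288, 443, 199 and 86.7 CPM at P5. After thinning to 2000 UMIs, with bins of 1, 2 to 4 and 5 or more Nos1 UMIs, Mef2c levels were 1478, 428 and 127 CPM at P1 and 688, 275 and 40.8 CPM at P5.

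**Figure D3:**
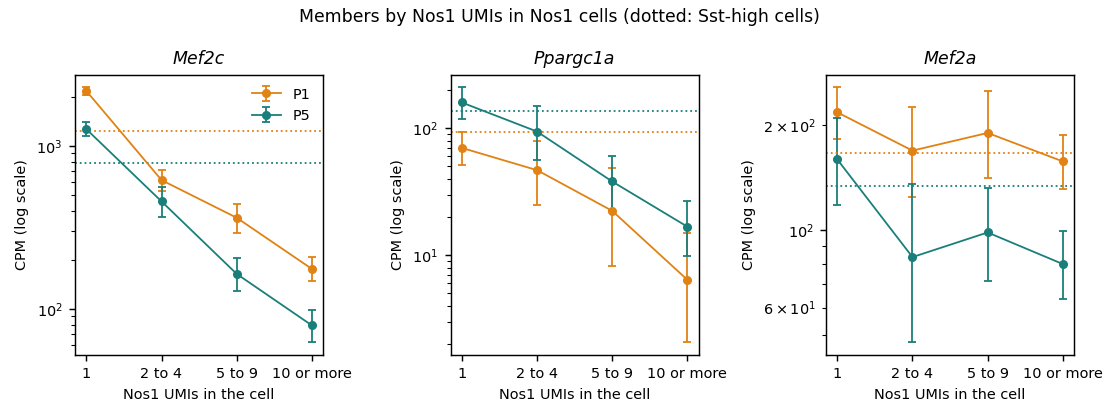
Levels of Mef2c, Ppargc1a and Mef2a (CPM, log axis) in Nos1 cells by the number of Nos1 UMIs in the cell (1, 2 to 4, 5 to 9, 10 or more) at P1 and P5, with 95% Poisson intervals as bars and the Sst-high level of the same library as a dotted line. Mef2c falls below the Sst-high level from 2 Nos1 UMIs on, to 175 CPM at P1 and 79.0 CPM at P5, and Ppargc1a to 6.40 and 16.8 CPM.

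Nfib was detected in each group at each stage. Its level in the Sst-high cells was 98.4 CPM at E16.5 (93.3 to 104), then 21.3 CPM at P1 (17.3 to 26.0) and 1.81 CPM at P5 (0.829 to 3.44). In the Lhx6 cells without Sst it was 198 CPM (184 to 213), 209 CPM (188 to 231) and 110.1 CPM (96.0 to 126). In the Nos1 cells it was 1030.0 CPM (950.0 to 1115), 199.5 CPM (180.3 to 220.3) and 34.1 CPM (26.4 to 43.3). Nfib therefore almost disappeared from the Sst-high cells after birth but persisted in the Lhx6 cells without Sst, where the levels at E16.5 and P1 overlapped.

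The log2 ratio of Nfib in the Lhx6 cells without Sst over the Sst-high cells was 1.00 (0.88 to 1.14) at E16.5, then 3.23 (2.96 to 3.63) at P1 and 5.30 (4.97 to 7.07) at P5. The P5 ratio rested on 9 Nfib UMIs in the Sst-high cells, and the E16.5 ratio was 0.14 when cells were thinned before the groups were formed. In thinned Lhx6 cells without Nos1 at E16.5, Nfib did not run down along the Sst bins. Its levels were 168, 92.2, 102 and 187 CPM (147 to 234 in the last) with 0, 1 to 4, 5 to 19 and 20 or more Sst UMIs. The share of cells with an Nfib UMI in the Sst-high cells was 20.2%, 5.02% and 0.670% (thinned 11.7%, 3.32% and 0.127%). In the Lhx6 cells without Sst it was 30.3%, 22.2% and 14.5% (thinned 20.8%, 19.4% and 10.5%). In the excitatory gate it was 86.1%, 90.0% and 33.3%, above both groups.

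Nfix and Nfia were sparse outside the Nos1 cells of the first library. Nfix levels were 3.75, 5.66 and 0.604 CPM in the Sst-high cells, 15.7, 66.8 and 30.8 CPM in the Lhx6 cells without Sst and 527, 85.3 and 11.2 CPM in the Nos1 cells. Nfia levels were 12.7, 1.74 and 0.403 CPM in the Sst-high cells, 31.8, 5.19 and 4.04 CPM in the Lhx6 cells without Sst and 177, 27.4 and 6.11 CPM in the Nos1 cells. Between E16.5 and P1 the Lhx6 cells without Sst went up in Nfix, with a log2 ratio of 2.02 (1.62 to 2.56), and the Nos1 cells down, with −2.61 (−2.91 to −2.35). Nfic, the fourth NFI gene, stood in the E16.5 library at 20.2 CPM in the Nos1 cells, 29.0 CPM (26.3 to 31.9) in the Sst-high cells and 41.2 CPM (35.0 to 48.2) in the Lhx6 cells without Sst. After birth its intervals overlapped between the groups, with levels of 44.7 to 55.3 CPM at P1 and 40.7 to 47.5 CPM at P5.

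The NFI levels of the Nos1 cells moved with cells that held transcripts of Neurod2 or Neurod6, transcription factors of excitatory neurons. At E16.5, 15 of the 67 Nos1 cells had such a UMI, and these cells carried 97.1% of the Nfia UMIs, 96.9% of the Nfib UMIs and 100% of the Nfix UMIs of the group. Nfib stood at 3111 CPM in those 15 cells and at 47.1 CPM (28.3 to 73.5) in the other 52. Nfix stood at 1642 CPM in the 15 cells and had 0 UMIs in the 52, where 3 counts would be 7.43 CPM, and Nfia stood at 535 and 7.43 CPM. Of the 36 cells of the excitatory gate in that library, 36.1% held a Nos1 UMI. The Nos1 cells without Neurod UMIs were below the 98.4 CPM of Nfib in the Sst-high cells. With all cells that held UMIs of other cell types left out, 50 Nos1 cells remained, and their log2 ratios over the Sst-high cells were −0.43 for Nfia, −0.85 for Nfib and −0.77 for Nfix, in place of 3.70, 3.37 and 6.80.

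At P1, 20 of 434 Nos1 cells had a Neurod UMI and carried 77.8% of the Nfia, 61.8% of the Nfib and 87.5% of the Nfix UMIs. Nfib levels were 1305 CPM with and 84.1 CPM (71.2 to 98.7) without, and Nfix levels 789 and 11.8 CPM. The 84.1 CPM of Nfib remained above the Sst-high cells without Neurod UMIs (20.1 CPM, 16.1 to 24.6). At P5 3 of 547 Nos1 cells had such a UMI, and in the remaining ones Nfib stood at 32.2 CPM and Nfix at 8.18 CPM. The log2 ratio of Nfix in Nos1 cells over Sst-high cells at P1, 3.70, was −0.18 in Nos1 cells that also held Lhx6 and no Neurod UMI. That of Nfib, 3.17, was 0.46 under the stricter cell filter.

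In the Lhx6 cells without Sst, leaving out the cells with Neurod UMIs (4, 9 and 2 cells) gave Nfib levels of 181, 195 and 110 CPM, in place of 198, 209 and 110.1 CPM. Nfix levels became 2.38, 54.5 and 28.4 CPM, in place of 15.7, 66.8 and 30.8 CPM, so that at E16.5 most of it lay in 4 cells. The postnatal Nfix of this group was found mainly in cells without Neurod transcripts. Mef2c in Nos1 cells without Neurod UMIs was 478, 741 and 310 CPM over the 3 stages, against 499.9, 913 and 324 CPM in the whole group. The 27 Ppargc1a UMIs of the Nos1 cells at E16.5 all lay in the 52 cells without Neurod UMIs, at 66.9 CPM (44.1 to 97.3), above the Sst-high cells (34.4 CPM).

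**Figure D4:**
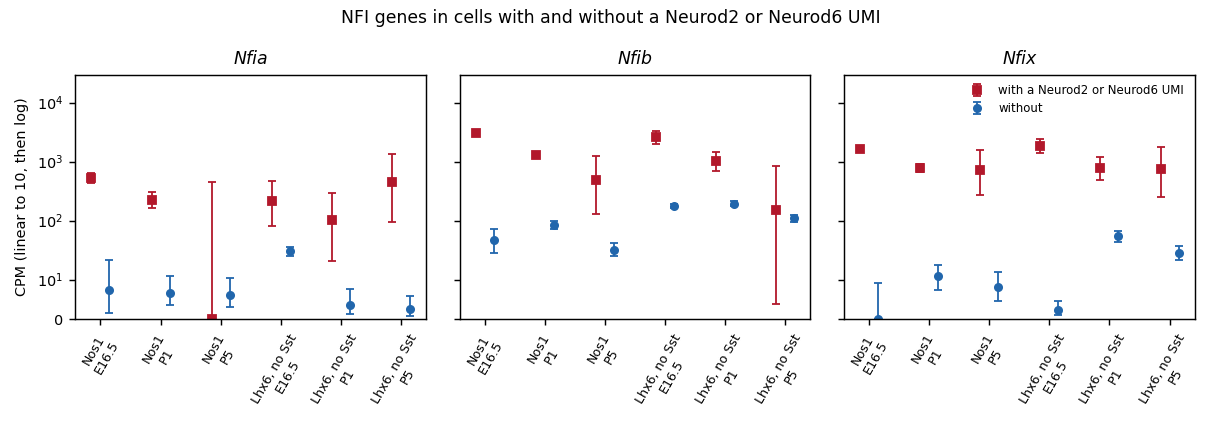
Levels of Nfia, Nfib and Nfix (CPM, axis linear to 10 CPM and logarithmic above) in cells with (squares) and without (circles) a Neurod2 or Neurod6 UMI, in Nos1 cells and in Lhx6 cells without Sst at E16.5, P1 and P5, with 95% Poisson intervals as bars. Nos1 cells with Neurod UMIs reach 3111 CPM of Nfib at E16.5 and 1305 CPM at P1, those without lie at 47.1 and 84.1 CPM, and groups of few cells with Neurod UMIs have wide bars.

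Cells with an Nfix UMI also differed from the rest of the kept cells in their other transcripts. At E16.5, 76.1% of the 67 cells with Nfix had Nfib, against 22.2% of the other cells, 47.8% had Meis2, against 1.70%, and 59.7% had Neurod6, against 0.438%. At P1 the shares among 150 such cells were 69.3% against 11.4% for Nfib 22.0% against 1.45% for Meis2 and 24.7% against 0.681% for Neurod6. At P5 they were, among 100 such cells, 63.0% against 4.13% for Nfib, 21.0% against 0.486% for Meis2 and 20.0% against 0.0347% for Neurod6. Lhx6, the lineage gene, was found in 43.3% of the Nfix cells at E16.5 against 84.7% of the others, in 54.0% against 80.2% at P1, and in 45.0% against 77.1% at P5. The median depths of cells with and without Nfix were 8264 and 5548 UMIs at E16.5, 3042.5 and 3322 UMIs at P1, and 2133.5 and 4008 UMIs at P5, so the cells with Nfix were the deeper ones at E16.5 and the shallower ones after birth.

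Inside the Sst-high cells the members varied with genes that mark subtypes, read as cells with at least 2 UMIs of a gate gene against the other cells. Cells with Nr2f2, which encodes the nuclear receptor COUP-TFII, had lower Mef2c at each stage, with levels of 511 against 724 CPM at E16.5, then 869 against 1370 CPM at P1 and 374 against 934 CPM at P5. The log2 ratios were −0.50 (−0.57 to −0.43), −0.66 (−0.75 to −0.56) and −1.32 (−1.46 to −1.18). Ppargc1a was lower in the same cells, with log2 ratios of −0.94, −0.56 and −1.10. Nr2f2 cells numbered 444, 122 and 189 of the Sst-high cells.

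Cells with Erbb4, the neuregulin receptor gene of migrating interneurons, went the other way. Their Mef2c levels were 832 against 555 CPM at E16.5, then 1521 against 1086 CPM at P1 and 1120 against 716 CPM at P5, log2 ratios of 0.58, 0.49 and 0.64. Ppargc1a was higher in them by 0.73, 0.73 and 0.72 on the log2 scale, with intervals that all excluded 0. Mef2a had log2 ratios of 0.34, 0.26 and 0.04, and the last interval (−0.25 to 0.33) included 0. The paper reports Erbb4 as most enriched along the non-Martinotti branch of these same cells. Mef2c and Mef2a are on the study's list of genes of non-Martinotti cells, chosen on these samples, so their direction here is not independent evidence.

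Cells with Reln, the gene of the extracellular protein reelin, were low in Nfib, at 44.9 against 119 CPM at E16.5 and 5.34 against 42.5 CPM at P1, log2 ratios of −1.39 (−1.64 to −1.18) and −2.78 (−3.92 to −2.17). Their Mef2c ratios were −0.10 (−0.16 to −0.03) at E16.5, −0.39 (−0.47 to −0.32) at P1 and −0.51 (−0.60 to −0.42) at P5. The paper reports Reln as most enriched along the Martinotti branch. Since Nfib and Mef2c are on the study's non-Martinotti list, their direction in Reln cells is not independent evidence either. At P5, cells with Pdyn (110) or Rbp4 (271) had Mef2c ratios of −0.09 and −0.15. Among the Nos1 cells of P5, the 121 cells with Lypd1 had 170.1 CPM of Mef2c against 382 CPM in the other 426, a log2 ratio of −1.16, and 22.2 against 63.3 CPM of Ppargc1a, a ratio of −1.47 (−2.52 to −0.64). In that group both genes also varied with Nos1 UMIs. From cells with 1 to cells with 10 or more, Mef2c went from 1264 to 79.0 CPM and Ppargc1a from 160 to 16.8 CPM. The Lypd1 gate was not matched for Nos1 UMIs, so the 2 cannot be told apart here. Gates of Cbln4, Tac1, Me3 and Pde5a in Sst-high cells and of Dach1 in Nos1 cells held fewer than 50 cells at each stage and were not compared.

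**Figure D5:**
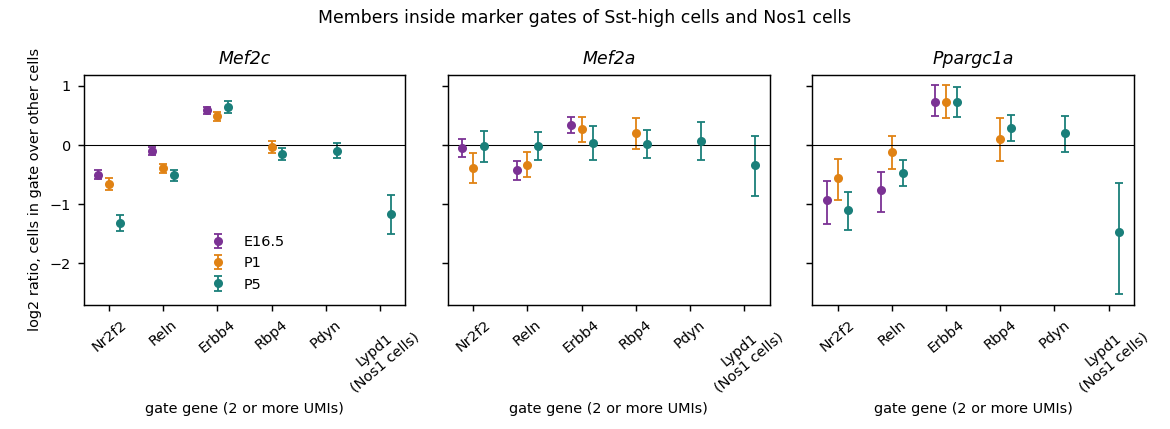
Log2 ratio of the level in gate cells over the other cells of the same group and library, for Mef2c, Mef2a and Ppargc1a, in each gate of at least 50 cells with at least 2 UMIs of the gate gene. Bars are 95% intervals of the count ratio. For Nr2f2 Mef2c reaches −1.32 at P5, for Erbb4 Mef2c and Ppargc1a lie above 0 at each stage, and for Lypd1 in Nos1 cells at P5 they lie at −1.16 and −1.47.

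Among 12 cofactors and regulators of MEF2, a few moved between stages and fewer between groups. From E16.5 to P1, 3 of the 10 tested in Sst-high cells were past 1.5-fold higher and none lower, with a median log2 ratio of 0.40 against 0.13 over all genes. That share was near the 23.7% of all genes past the limit higher at this step. The 3 were Ppp3ca (714 against 365 CPM, log2 ratio 0.96) and Ppp3cb (318 against 173 CPM, 0.88), which encode catalytic subunits of calcineurin, and the class IIa deacetylase gene Hdac7 (37.7 against 22.3 CPM, 0.73). From P1 to P5, 2 of 10 were lower, Mapk7 (−0.71), which encodes the kinase ERK5, and the acetyltransferase gene Ep300 (41.5 against 81.6 CPM, −0.96), and none was higher, where 22.8% of all genes were lower and 16.7% higher. Against the Sst-high cells, Hdac5 was higher in Lhx6 cells without Sst at E16.5 (69.8 against 39.0 CPM, 0.83) and at P1 (0.72), and at P5 Hdac9 (0.97) and Mapk7 (0.96) were. In Nos1 cells Mapk7 was higher at E16.5 (0.79), no regulator passed the limit at P1, and Ppp3ca was lower at P5 (296 against 614 CPM, −1.05).

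Of 8 known MEF2 targets, 3 or 4 were expressed well enough to be tested, and at most 1 was past the limit in either direction in any of the 8 comparisons. Over all genes, from 2.84% to 23.7% were past it higher and from 4.99% to 22.8% lower in these comparisons. Pcdh10, a protocadherin gene, was higher at P1 than at E16.5 in the Sst-high cells (0.79) and lower in Lhx6 cells without Sst than in Sst-high cells at P1 (153 against 272 CPM, −0.83). Jun, an immediate early gene, was higher in Nos1 cells at each stage, with 172 against 97.7 CPM at E16.5, then 173 against 84.7 CPM at P1 and 271 against 124 CPM at P5, log2 ratios of 0.81, 1.02 and 1.12. It was the 1 target past the limit there, of 3 tested at E16.5 and 4 at each later stage. Of all genes, 6.18%, 4.03% and 5.34% were past it higher in Nos1 cells. In Lhx6 cells without Sst, Jun was lower at E16.5 (−0.76).

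Of 13 partners and targets of PGC-1α, 4 to 6 were tested in a comparison. In the Sst-high cells 2 of 6 were past 1.5-fold higher at P1 than at E16.5 and none lower (median log2 ratio −0.01), and 3 of 5 were higher and 2 of 5 lower at P5 than at P1 (median 0.76, against −0.09 over all genes). Over all genes 23.7% were higher at the first step, and 16.7% were higher and 22.8% lower at the second, so that the 2 of 6 were near the background. In the Sst-high cells, Cplx1, which encodes a complexin of fast transmitter release, increased with Ppargc1a, from 61.7 CPM at E16.5 to 164 CPM at P1 and 386 CPM at P5, log2 ratios of 1.40 and 1.23. Esrra, which encodes the nuclear receptor ERRα, was higher at P1 than at E16.5 (53.3 against 28.6 CPM, 0.88) and lower at P5 than at P1 (12.7 CPM, −1.99). At P5 Cycs, the gene of cytochrome c (367 against 216 CPM, 0.76), and Sirt3, of a mitochondrial deacetylase (81.8 against 43.1 CPM, 0.91), were higher than at P1, and Tfam, of the mitochondrial transcription factor A, was lower (−0.90). In Nos1 cells 2 of 6 were lower at P1 and 2 of 4 at P5 (medians −0.19 and −0.47, against −0.02 and −0.07 over all genes), where 5.55% and 9.23% of all genes were lower. Sirt3 and Cplx1 were lower than in Sst-high cells, at P1 (−0.69 and −0.62) and at P5 (−0.76 and −0.80). Sirt3 was lower there at E16.5 as well (−0.84), 1 of 5 tested, where 5.83% of all genes were lower. No listed gene was higher.

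The same list was read in the Lhx6 cells without Sst, set against the Sst-high cells. At E16.5 Cycs (−0.76) and Cplx1 (−0.62) were past the limit lower, 2 of 6 tested, where 4.99% of all genes were. At P1 the nuclear respiratory factor gene Nrf1 was higher (0.73), 1 of 6, where 5.18% of all genes were. At P5 none of 4 was past it in either direction, where 5.37% of all genes were higher and 6.18% lower. Of 8 NFI targets and partners, at most 2 were tested. At each step in the Sst-high cells 1 of 2 was higher and 1 of 2 lower. Of all genes, 23.7% were higher and 14% lower at the first step, and 16.7% and 22.8% at the second. Against the Sst-high cells, 1 of 2 was higher at E16.5 and at P1 in both other groups. Of all genes, 6.18% and 4.03% were higher in the Nos1 cells and 2.84% and 5.18% in the Lhx6 cells without Sst. The chromatin gene Ezh2 was lower at P1 than at E16.5 in the Sst-high cells (46.6 against 108 CPM, −1.20) and lower again at P5 (8.86 CPM, −2.27). At P1 it was higher than in Sst-high cells in both the Nos1 cells (0.74) and the Lhx6 cells without Sst (0.94). Cntn2, of an axonal adhesion molecule, was higher at P1 (1.52) and again at P5 (0.66). At E16.5 it was higher in the Lhx6 cells without Sst (1.07) and in the Nos1 cells (185 CPM, 3.57), the group with the Neurod cells.

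The genes most like each member in their levels were found by Pearson's r of log2(CPM + 1) over 9 points, 3 groups in 3 libraries, among 7215 genes. The points share libraries, and some cells belong to 2 groups, so r is a description. The nearest to Mef2c were Fam168b (0.97), Rgs12 (0.96) and Atp2b1 (0.96), and to Mef2a Kat6b (0.95), Rgs12 (0.94) and Dhx32 (0.94). The nearest to Ppargc1a were Tub (0.98), Afap1 (0.97) and Fam174b (0.95). Nfix had Zbtb18 (0.95), Gucy1b1 (0.89) and Neurod6 (0.89), of which Zbtb18 and Neurod6 are transcription factor genes of excitatory neurons. Nfib had Ppp1r12a (0.96), Vgll4 (0.96) and Msantd3 (0.95), Nfia Ier5 (0.96), Gpr85 (0.96) and Fam222a (0.92), Nfic Miga1 (0.98), Kmt2d (0.98) and Tmem135 (0.97), and Mef2d Tmem145 (0.98), Polr1a (0.98) and Mgrn1 (0.97). Among the members themselves, Mef2a and Mef2c had an r of 0.91, and Nfib and Nfix one of 0.88, which was 0.51 when cells with Neurod UMIs were left out. Without those cells the nearest genes changed for every member, in part or in full. Mef2c kept Rgs12 and Atp2b1, Mef2a kept Kat6b and Rgs12, Ppargc1a kept Afap1 and Fam174b, and Nfic kept Miga1. All 3 changed for Mef2d, to Grik5 (0.99), Supt5 (0.98) and Tmem170b (0.97). All 3 also changed for Nfib, to Nrf1 (0.95), Dicer1 (0.95) and Dclk2 (0.95). For Nfia they became Zfp90 (0.96), Hmgn1 (0.95) and Syndig1 (0.93), and for Nfix Mat2a (0.97), Acap2 (0.94) and Zscan18 (0.92). Nfia and Nfix then averaged 7.71 and 12.1 CPM over the points, under the 20 CPM asked of the other genes.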

How the data were processed

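Sorted neocortical cells were sequenced as 1 library per stage, and stages were taken from the age given in the labels. The authors deposited UMI counts per gene and cell, made with Cell Ranger 3.0.2 for the P1 library and 3.1.0 for both others and aligned to GRCm38; only barcodes called as cells were included, with no further filter. P1 and P5 tissue passed a density step to remove myelin and P5 tissue was also treated with trypsin, so dissociation cannot be told apart from stage.

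Cells with more than 700 genes and under 10% mt- UMIs were kept, and doublets were left in. UMIs were summed per group and library and divided by the group's total (CPM). Intervals were 95% exact Poisson (levels), Clopper-Pearson (shares) and conditional binomial (ratios of counts, without the pseudocount of the ratio itself). Groups were compared on log2(CPM + 1) for genes with a mean of at least 20 CPM, and past 1.5-fold was counted. No test was run, since each stage is 1 library and cells are not replicates. Thinning drew 2000 UMIs per cell without replacement (seed 1), and shallower cells were left out. All 8 members were named whatever their values. Of the 4 pathway lists the genes past 1.5-fold were named, and for each member the 3 genes with the highest r. The members and lists were chosen with earlier results of these data known. Promoters came from RefSeq, where 7 of the 8 members matched. Alternatives changed the cell filter, UMI limits, scaling, totals, pseudocount, low-value filter, depth, possible doublets and cells of other types. The ratio and interval code was tested on simulated data. Python 3.11.15, numpy 2.4.6, scipy 1.17.1, pandas 2.3.3 and matplotlib 3.10.9 were used.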

Additional observations from a re-analysis of the deposited data

Results flagged for a closer look

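The log2 ratio of Mef2a in Nos1 cells over Sst-high cells was 0.53 (95% counting interval 0.23 to 0.81) at E16.5 and −0.46 (−0.71 to −0.23) at P5, a difference of 0.99 between stages that lie in opposite directions with intervals on either side of 0. The difference itself was not tested, since each stage is 1 library. Of the Nos1 cells, 15 of 67 held a Neurod2 or Neurod6 UMI at E16.5 and 3 of 547 at P5. The whole Nos1 group stood at 180.1 CPM of Mef2a at E16.5. In its cells with Lhx6 and no Neurod UMI, Mef2a stood at 235 CPM (173 to 313) with 1 Nos1 UMI and at 184 CPM (114 to 281) with 2 to 4. It stood at 178 CPM in the 3 such cells with 5 to 9 Nos1 UMIs and at 97.1 CPM in the 4 with 10 or more. At P5 Mef2a stood at 164, 113, 110 and 80.6 CPM in the same bins, against 134 CPM in the Sst-high cells. Cells with 1 Nos1 UMI were 38 of the 67 Nos1 cells at E16.5 and 81 of the 547 at P5. The make-up of the group by Nos1 UMIs thus differed between the stages.

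The log2 ratio of Nfix at P1 over E16.5 was −2.61 (−2.91 to −2.35) in Nos1 cells and 2.02 (1.62 to 2.56) in Lhx6 cells without Sst, a difference of −4.63 that was not tested either. In the Nos1 cells the Nfix UMIs lay mainly in cells with Neurod UMIs, 100% of them at E16.5 and 87.5% at P1. Without such cells Nfix stood at 0 UMIs and 11.8 CPM in Nos1 cells, and at 2.38 and 54.5 CPM in Lhx6 cells without Sst, and the intervals of the Nos1 cells (0 to 9.14 and 7.29 to 18.0 CPM) overlapped.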

How the results depend on the processing

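The 8 counts of members past 1.5-fold were recomputed under up to 16 alternatives each, 112 times in all, and 98 of these were within 1.5 times the count reported. From E16.5 to P1 in Sst-high cells, 5 members became 3 under median-of-ratios size factors, a split of 2 higher and 1 lower in place of 4 and 1. From P1 to P5, 1 member became 2 under the stricter cell filter, with at least 3 Sst UMIs, with the mean of per-cell CPM and after thinning within the groups, 0 with at least 10 Sst UMIs, 3 when cells were thinned before the groups were formed and 4 with no filter on low values. For Nos1 cells against Sst-high cells, 3 members at E16.5 became 6 without the top 5% of cells by UMIs and 5 with the mean of per-cell CPM or after thinning, and 2 at P5 became 5 with no filter. For Lhx6 cells without Sst at P5, 3 became 5 with the mean of per-cell CPM or with no filter.

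Of 25 calls, 15 held under every alternative run. The ratios of Nfia, Nfib and Nfix in Nos1 cells over Sst-high cells at E16.5 reversed, to −0.43, −0.85 and −0.77, when cells with UMIs of other cell types were left out, which left 50 Nos1 cells. That of Nfix at P1 reversed to −0.18 in Nos1 cells with Lhx6 and no Neurod UMI, and was 0.01 with at least 5 Nos1 UMIs. The alternatives at E16.5 for Nos1 cells, and those with at least 5 Nos1 UMIs or with Lhx6 and no Neurod UMI, were chosen after seeing the data. At E16.5 fewer than 50 Nos1 cells were left with at least 2 or 5 Nos1 UMIs, with Lhx6 and no Neurod UMI, or when thinned before grouping, and these were not run. Leaving out a replicate was not possible with 1 library per stage. No paired analysis was possible because the stages share no replicate numbers beyond 1 library each and no test was run. Depth limits the members with the lowest counts most, Nfia and Nfix in the Sst-high cells.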
